A study of Mus musculus with 15 samples.

Results

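The 10 genes described here belong to the Notch pathway and were chosen by name: the receptors Notch1, Notch2, Notch3 and Notch4, the ligands Jag1 and Dll1, and the transcriptional targets Hes1, Hey1, Hey2 and Heyl. Their rows were read from both deposited count tables. In the table of cultured mouse retinal pigment epithelium (RPE) cells, 7 of the 10 had a row among 20910 genes, and Hey1, Hey2 and Heyl were not analysed here in those cells. In the table of RPE/choroid tissue, all 10 had a row among 25038 genes, and every member with a row had enough counts to be tested. RNA was sequenced from 15 libraries to ask how loss of Prom1, the gene of the membrane protein prominin-1, alters gene expression in the RPE. The cultured cells (mRPE) had been isolated from pooled C57/BL6J mice and immortalized with the HPV oncogenes E6 and E7. The labels describe puromycin-selected cells with stable Cas9 that received a scrambled guide RNA or a guide against exon 5 of Prom1, and do not say which of these treatments the WT libraries had. The 9 mRPE libraries were 4 of WT cells, 3 of the Prom1-KO clone KO22 and 2 of the Prom1-KO clone KO26, so each knockout group stands for 1 clone. The 6 tissue libraries were 3 of WT mice and 3 labelled Prom1-KO, from Prom1 fl/fl mice crossed with RPE65-Cre mice and gavaged with tamoxifen, a design meant to delete the gene in the RPE and to leave the choroid intact. The paper gives age ranges for the donors of the cultured cells and for its C57/BL6J mice, the latter of both sexes. It does not tie these to the tissue libraries. Age and sex for the tissue libraries, and whether their WT mice carried floxed alleles, Cre or tamoxifen, are not given in the sources used here.

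Notch receptors are membrane proteins that are cut when a ligand of the Jagged or Delta-like family on a neighbouring cell pulls on them. The freed intracellular part enters the nucleus, joins the DNA-binding protein RBPJ and a Mastermind protein, and switches on repressor genes of the Hes and Hey families. In the eye, Notch signalling is known for holding retinal progenitors in an undifferentiated state and for shaping vessels, where Notch3 is typical of mural cells and Notch4 of endothelium.

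The mRPE libraries held 8076188 to 27537863 counts and were sequenced in 2 batches named in the library labels, 8995 (WT, KO22 and KO26 replicate 1) and 9262 (the other 6). The tissue libraries held 48154444 to 61766179 counts in batch 12965. Of these the mitochondrial ribosomal RNAs took 55.3% to 63.2% in 5 libraries and 80.4% in Prom1-KO replicate 3, so that this library stands apart. Tissue fold changes of the members are given with and without it. Counts of genes past a limit in tissue include it unless stated. Prom1 itself was not analysed here in mRPE. In tissue its level was 48.7, 49.6 and 53.3 CPM (the counts-per-million scale, with library sizes adjusted by TMM) in WT and 49.9, 48.1 and 35.5 CPM in the libraries labelled Prom1-KO, a log2 difference of -0.18 ± 0.16 (SE) with an adjusted p of 0.824 in edgeR (-0.06 and 0.953 without Prom1-KO replicate 3), so the label is used below as a name only. The RPE marker list was scarce in mRPE. Of its 10 genes, Best1, Mitf and Pmel had values, at a summed 5.4 to 38.7 CPM, and the other 7, Rpe65 among them, were not analysed here. Fibroblast markers, 7 of 8 with values, summed to 12806 to 17501 CPM in WT, 5565 to 8668 CPM in KO22 and 19868 to 21795 CPM in KO26. Between KO22 and WT 6 of these 7 had negative and 1 had positive log2 fold changes. Their part in the Notch values was not tested. In tissue the summed RPE markers were 1712 to 2625 CPM in WT and 384 to 538 CPM in the libraries labelled Prom1-KO (413 and 538 CPM without replicate 3). Summed photoreceptor markers varied widely, at 92.0, 42.6 and 1232 CPM in WT and at 608, 158 and 26.0 CPM in the libraries labelled Prom1-KO. The paper describes Prom1 in photoreceptors too, and the part of these cells in the tissue values of Prom1 and the Notch genes was not tested. No label states that libraries of a group came from separate cultures or animals, so the p-values may measure technical spread alone, and in bulk RNA fewer cells of a type and less RNA per cell cannot be told apart.

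Notch2 was the most abundant member in WT mRPE cells once levels were divided by the length of the annotated exons. Its level was 10.7 ± 1.26 CPM per kb (SD, n = 4). The next were Jag1, a ligand, at 1.97 ± 0.20 CPM per kb, Notch3 at 1.69 ± 0.20 and Notch1 at 1.30 ± 0.17 CPM per kb. The ranges of Jag1 and Notch3 overlapped, as did those of Notch3 and Notch1. Hes1, the repressor most widely used as a readout of Notch activity, was at 0.375 ± 0.161 CPM per kb, below every library's value of Notch1. Dll1, a Delta-like ligand, at 0.138 ± 0.107 CPM per kb, and Notch4, at 0.0816 ± 0.0210 CPM per kb, were the lowest and overlapped each other. The range of Dll1 also overlapped that of Hes1. The order differed in tissue, where Hes1 was the highest in WT at 5.83 ± 2.55 CPM per kb (SD, n = 3). Its range of 3.01 to 7.96 overlapped those of Notch2 (3.57 ± 0.61) and Jag1. Jag1 (2.80 ± 0.27), Notch3 (1.82 ± 0.15) and Notch1 (1.56 ± 0.16) followed in CPM per kb, each range separate from the next. Heyl, a Hey-family repressor, was at 1.16 ± 0.39 CPM per kb, overlapping Notch1. Hey1 (0.549 ± 0.066), Notch4 (0.528 ± 0.145), Dll1 (0.519 ± 0.160) and Hey2 (0.378 ± 0.109 CPM per kb) overlapped their neighbours. The tables were made and scaled separately, so no test was run between cells and tissue.

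In KO22 cells, Notch3 was the member that differed from WT after adjustment. It was at 17.6, 15.6, 13.6 and 14.1 CPM in WT replicates 1 to 4 and at 39.7, 30.3 and 25.8 CPM in KO22 replicates 1 to 3. All 3 KO22 libraries lay above all 4 WT libraries, with means of 31.9 ± 7.10 (SD, n = 3) and 15.2 ± 1.76 CPM (SD, n = 4). The log2 fold change was 1.02 ± 0.13 (SE; edgeR adjusted p = 0.000161), a ratio of 2.03. It passed the limit of 0.05 on the adjusted p and stayed under the limit of 1.2 on the absolute log2 fold change that a call also required. Within batch 8995 the log2 difference was 1.15 with 1 library a group, and within batch 9262 it was 0.93.

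**Figure D1:**
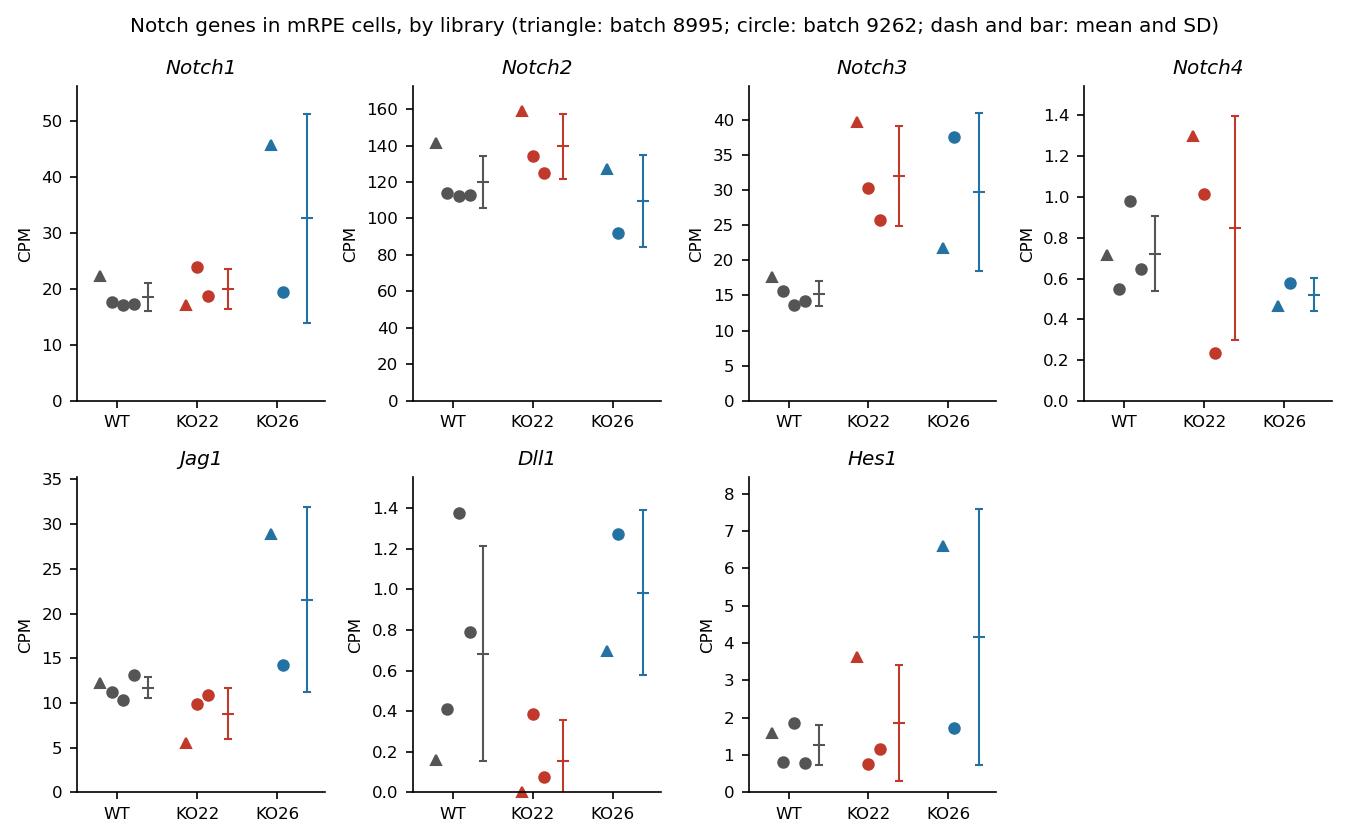
Levels of the 7 Notch genes with values in mRPE cells, in CPM for each library of WT (n = 4), KO22 (n = 3) and KO26 (n = 2). Triangles are batch 8995, circles are batch 9262, and the dash with its bar is the mean ± SD. For Notch3 every knockout library lies above the highest WT value of 17.6 CPM. KO26 replicate 1 is the top point for Notch1, Jag1 and Hes1, and KO22 replicate 1 for Notch2, Notch3 and Notch4.

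Among the other receptors, Notch2 was at 112 to 141 CPM in WT and at 159, 134 and 125 CPM in KO22. The groups overlapped, and the log2 fold change was 0.19 ± 0.10 (SE; edgeR adjusted p = 0.123). Notch1 was at 17.1 to 22.3 CPM in WT and at 17.2 to 24.0 CPM in KO22, and its log2 fold change was 0.10 ± 0.17 (edgeR adjusted p = 0.619). Notch4 rested on 3 to 21 counts per library, 0.548 to 0.982 CPM in WT and 0.233 to 1.30 CPM in KO22, so a change was not detectable at this depth (log2 fold change 0.24 ± 0.50, edgeR adjusted p = 0.714).

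Of the ligands, Jag1 was at 12.2, 11.2, 10.3 and 13.1 CPM in WT and at 5.53, 9.88 and 10.9 CPM in KO22. KO22 replicate 1 was the low library and replicate 3 lay inside the WT range, and the log2 fold change was -0.43 ± 0.21 (edgeR adjusted p = 0.116). Dll1 had 4, 6, 14 and 11 counts in WT and 0, 8 and 1 counts in KO22. The count of 0 in KO22 replicate 1 allows up to 0.259 CPM, counting error only, which is above the 0.159 CPM of WT replicate 1. The log2 fold change of Dll1 was -1.78 ± 0.70 (edgeR adjusted p = 0.0577). Of the exon bases of Dll1, 27.6% overlap Fam120b on the opposite strand, and the strand setting of the counting is not given in the sources used here, so reads of these genes may not be told apart. The target Hes1 had 11 to 42 counts per library in these groups. It was at 0.789 to 1.87 CPM in WT and at 3.63, 0.771 and 1.16 CPM in KO22 (log2 fold change 0.30 ± 0.44, edgeR adjusted p = 0.591), with KO22 replicate 1 high, replicate 2 just under the WT range and replicate 3 inside it.

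In all, 0 of the 7 members passed both limits between KO22 and WT, where 25.2% of the 20455 tested genes did, and 1 passed the adjusted p at any fold, where 53.0% did. At an unadjusted p under 0.05 the count was 2 (Notch3 and Dll1), beside 58.4% of tested genes, and DESeq2 also placed 0 past both limits. The count past both limits was 1 (Dll1) without WT replicate 1, WT replicate 2, KO22 replicate 1 or KO22 replicate 2. Within batch 8995 and batch 9262 the log2 differences had opposite signs for Notch1 (-0.36 and 0.28), Notch4 (0.57 and -0.20) and Hes1 (0.98 and -0.13), and the same sign for Notch2 (0.17 and 0.20) and Jag1 (-1.07 and -0.14). The groups did not overlap for 1 member, Notch3, and 24.8% of tested genes were separate in that direction. The median log2 fold change of the members was 0.19, beside -0.03 over all tested genes. Mural cell markers, of which 9 of 10 had values in mRPE and none was at 0 throughout a group except Kcnj8 in KO26, summed to 969 to 2053 CPM in WT, 297 to 411 CPM in KO22 and 1246 to 2295 CPM in KO26. The sum was mostly Acta2 and Pdgfrb. Between KO22 and WT 4 of the 8 tested mural markers were lower past both limits (Acta2, Pdgfrb, Tagln and Rgs5) and 3 were higher (Cspg4 at 1.86, Kcnj8 at 3.03 and Cnn1 at 1.94 on the log2 scale), and in KO26 Rgs5 (2.55) was higher past both limits and Cspg4 (1.02, edgeR adjusted p = 0.0412) past the adjusted p. Their part in the Notch3 values was not tested.

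The share of Notch3 among the receptors, taken per length, moved with its level. It was 11.8% to 13.2% of the summed CPM per kb of the 4 receptors in WT, 18.7% to 22.2% in KO22, and 14.2% and 30.3% in KO26. Notch2 gave 76.9% to 77.9% in WT, 69.8% to 72.6% in KO22, and 66.5% and 59.3% in KO26. For both receptors the WT range lay apart from that of KO22 and KO26. Notch1 gave 9.4% to 9.7% in WT, 6.1% to 9.9% in KO22, and 18.9% and 9.9% in KO26. The shares of a library add up to the whole, so a higher share of any receptor lowers those of the others. These are thus not separate results, and in KO26 replicate 1 the lower Notch2 share came with a higher share of Notch1 as well as of Notch3. The level of Notch2 itself overlapped with WT in both clones, with log2 fold changes of 0.19 ± 0.10 in KO22 and -0.23 ± 0.12 in KO26 (SE). In tissue Notch2 gave 44.0% to 52.0% in WT and Notch4 4.4% to 9.2%, and in the libraries labelled Prom1-KO these shares were 49.9% to 55.8% and 3.8% to 4.4%. Without Prom1-KO replicate 3 they were 55.8% and 51.2% for Notch2 and 4.1% and 4.4% for Notch4.

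**Figure D2:**
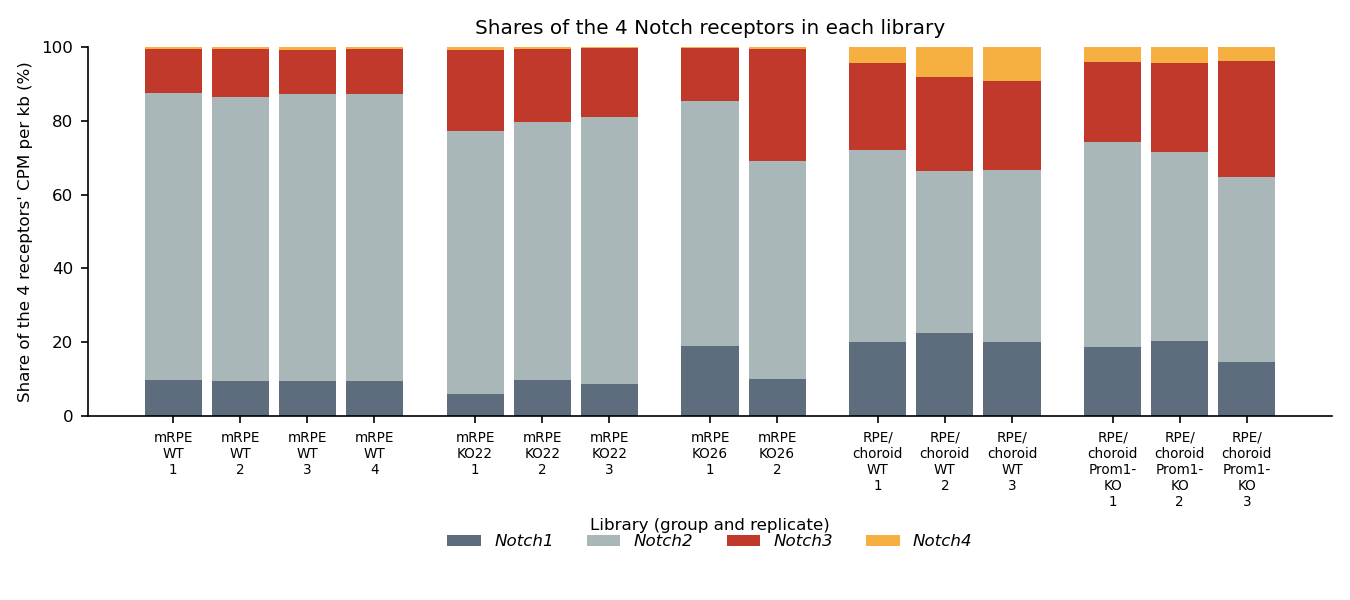
Share of each Notch receptor in the summed CPM per kb of the 4 receptors, in percent, with 1 bar for each of the 15 libraries. Notch2 takes 76.9% to 77.9% of each mRPE WT bar, and Notch3 takes 18.7% to 22.2% of each KO22 bar against 11.8% to 13.2% in WT.

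Promoter sequences are shown for the receptor that differed in KO22 cells, for the most abundant receptor, for the receptor with the largest difference in tissue, and for Hey2, a target that held the RBPJ core. RefSeq promoters on GRCm38.p6 matched 7 of the 10 members, and those of Hes1, Hey1 and Heyl are not shown. Each run gives 200 bases, from -250 to -51 relative to the gene start, on the strand of the gene. Capitals mark the RBPJ core (TGGGAA), the E-box bound by HES and HEY repressors (CACGTG) and the GC box (GGGCGG), searched on both strands.
Notch3, chr17:32166941-32167140, minus strand: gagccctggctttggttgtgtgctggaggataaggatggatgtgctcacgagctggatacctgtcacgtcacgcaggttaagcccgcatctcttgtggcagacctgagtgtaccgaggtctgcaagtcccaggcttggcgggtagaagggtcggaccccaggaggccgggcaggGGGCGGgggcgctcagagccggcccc
Notch2, chr3:98013288-98013487, plus strand: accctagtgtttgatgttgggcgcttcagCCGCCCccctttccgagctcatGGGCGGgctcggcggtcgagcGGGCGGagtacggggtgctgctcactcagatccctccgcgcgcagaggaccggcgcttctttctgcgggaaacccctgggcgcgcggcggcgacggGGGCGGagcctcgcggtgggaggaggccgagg
Notch4, chr17:34564045-34564244, plus strand: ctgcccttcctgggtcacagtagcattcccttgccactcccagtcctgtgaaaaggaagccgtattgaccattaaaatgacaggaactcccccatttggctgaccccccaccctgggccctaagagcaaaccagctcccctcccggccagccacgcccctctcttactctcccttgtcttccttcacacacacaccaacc
Hey2, chr10:30842834-30843033, minus strand: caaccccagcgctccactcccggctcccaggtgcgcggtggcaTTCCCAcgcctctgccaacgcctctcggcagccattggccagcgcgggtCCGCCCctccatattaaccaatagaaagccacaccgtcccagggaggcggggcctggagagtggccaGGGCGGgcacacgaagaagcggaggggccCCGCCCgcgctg
Notch3 held 1 GC box, at -76 to -71, Notch2 held 4 and Notch4 held 0, where 24.6% of 32851 promoters held at least 1. The RBPJ core occurred in Hey2, at -207 to -202 on the opposite strand, and in none of the other 6 matched members, where 17.9% of promoters held it. The HES and HEY E-box occurred in 0 of the 7, beside 4.34% of all promoters. These matches describe letters in this window alone. In the build of the counts, GRCm39, the genes span other coordinates, with Notch3 at chr17:32339794-32385893, Notch2 at chr3:97920800-98057677, Notch4 at chr17:34783220-34807477 and Hey2 at chr10:30708350-30718828.

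The clone KO26 had 2 libraries, both treated as outliers and left out of the study's own mRPE tests. The log2 difference between them was larger in size for Hes1 than for 93.5% of tested genes, and for Notch1 than for 80.4%. For the other members this share ran from 29.2% (Notch4) to 73.8% (Jag1). Notch3 was at 21.7 and 37.6 CPM in KO26 replicates 1 and 2, both above the 4 WT libraries, with a log2 fold change of 0.93 ± 0.24 (SE; edgeR adjusted p = 0.0624), which missed the limit. DESeq2 gave an adjusted p of 0.0237, and the alternatives spanned 0.00259 to 0.511. The log2 fold change was 1.40 without KO26 replicate 1 and 0.23 without replicate 2. Between the clones Notch3 differed by 0.12 ± 0.26 (edgeR adjusted p = 0.765).

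Jag1 was at 28.9 and 14.2 CPM in KO26, both above the WT maximum of 13.1 CPM, and the log2 fold change was 0.88 ± 0.33 (edgeR adjusted p = 0.171). Notch1 was at 45.8 and 19.4 CPM (0.68 ± 0.28, edgeR adjusted p = 0.203) and Hes1 at 6.59 and 1.73 CPM (1.24 ± 0.48, edgeR adjusted p = 0.18). KO26 replicate 1 was thus the highest of the 9 libraries for Notch1, Jag1 and Hes1, at 1.81 to 2.03 times the next library, while 16.6% of tested genes had their highest value in that library. KO22 replicate 1, also of batch 8995, was the highest for Notch2, Notch3 and Notch4, beside 16.7% of tested genes. In KO26 replicate 2 Notch1 and Hes1 lay inside their WT ranges. Within batch 8995, with 1 library a group, the log2 difference from WT was 1.02 for Notch1, 1.21 for Jag1, 1.76 for Hes1 and 0.30 for Notch3, and within batch 9262 it was 0.16, 0.29, 0.49 and 1.35 in the same order. This view of single libraries was chosen after the values were seen. Notch2 was at 127 and 91.8 CPM in KO26 (-0.23 ± 0.12, edgeR adjusted p = 0.316). Notch4, with 10 and 5 counts, and Dll1, with 15 and 11, did not pass the adjusted p (0.645 and 0.351 in edgeR).

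Against WT, 0 of the 7 members passed both limits in KO26, where 1.92% of 20737 tested genes did, and 0 passed the adjusted p at any fold, where 3.50% did. DESeq2 also placed 0 past both limits, and 4 members (Notch1, Notch3, Jag1 and Hes1) had an unadjusted p under 0.05, beside 20.1% of tested genes. The count past both limits was 1 (Notch3) without KO26 replicate 1, 2 (Notch1 at 1.25 and Jag1 at 1.52 on the log2 scale) without KO26 replicate 2, and 1 (Hes1) without KO22 replicate 1. The groups were separate for 2 members, Notch3 and Jag1, both higher, beside 11.9% of tested genes. The median log2 fold change of the members was 0.88, beside 0.03 over all tested genes. KO22 and KO26 were compared with the same WT libraries, so their values are given side by side only.

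Between the clones the members past both limits were Jag1 and Dll1. Of the 4 other tested ligands 2 were higher and 2 lower in KO22, with Dlk2 higher past both limits (1.65). Jag1 was lower in KO22 than in KO26, with means of 8.79 ± 2.87 (SD, n = 3) and 21.5 ± 10.3 CPM (SD, n = 2) and a log2 fold change of -1.29 ± 0.35 (SE; edgeR adjusted p = 0.0166). Dll1 was lower as well, at -2.92 ± 0.83 (edgeR adjusted p = 0.0194), from 0, 8 and 1 counts in KO22 and 15 and 11 in KO26. For both ligands all KO22 libraries lay below both KO26 libraries. Such separation in that direction was found in 24.6% of 20737 tested genes. These were 2 of 7 members past both limits, where 10.7% of tested genes passed them in the lower direction and 18.3% in either, and with Notch2 3 of 7 passed the adjusted p, where 34.4% did. Notch2 passed the adjusted p but not the fold limit and was higher in KO22, by 0.42 ± 0.13 (edgeR adjusted p = 0.0263), with ranges that met at 125 and 127 CPM. Hes1 (-0.98 ± 0.47, edgeR adjusted p = 0.134), Notch1 (-0.57 ± 0.29, 0.161) and Notch4 (0.82 ± 0.65, 0.364) did not pass the adjusted p, except that Hes1 passed both limits without KO22 replicate 1 (-1.45). The calls of the ligands rest on few libraries. With the KO22 and KO26 libraries fitted alone the edgeR adjusted p was 0.113 for Jag1 and 0.0812 for Dll1, and with no batch term that of Dll1 was 0.116. Without KO26 replicate 1 the log2 fold change of Jag1 was -0.61 (edgeR adjusted p = 0.185) and that of Dll1 -2.36 (0.0869), without KO22 replicate 1 Jag1 was at -0.79, under the fold limit, without KO26 replicate 2 it was at -1.95, without KO22 replicate 2 Dll1 was at -4.57, and without KO22 replicate 3 the adjusted p of Dll1 was 0.0563.

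In RPE/choroid, no member differed between the groups after adjustment. Notch4, the endothelial receptor, had the largest difference. It was at 3.21, 5.21 and 5.60 CPM in WT and at 2.33, 2.69 and 1.86 CPM in the libraries labelled Prom1-KO. All 3 labelled Prom1-KO lay below all 3 WT libraries, a separation found in that direction in 7.89% of 24926 tested genes, with means of 2.29 ± 0.42 and 4.67 ± 1.28 CPM (SD, n = 3 each). The log2 fold change was -1.02 ± 0.26 (SE), with an unadjusted edgeR p of 0.00495 and an adjusted p of 0.281. DESeq2 gave an adjusted p of 0.0374, and over the alternatives the adjusted p was 0.0374 to 0.826. Without Prom1-KO replicate 3 the log2 fold change was -0.91 (edgeR adjusted p = 0.401). Endothelial markers, of which 10 of 10 had values and none was at 0 throughout a group, summed to 110 to 217 CPM in WT and 89.0 to 99.5 CPM in the libraries labelled Prom1-KO (90.9 and 99.5 CPM without replicate 3), with 4 of 10 separate and lower, and their part in the Notch4 difference was not tested.

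**Figure D3:**
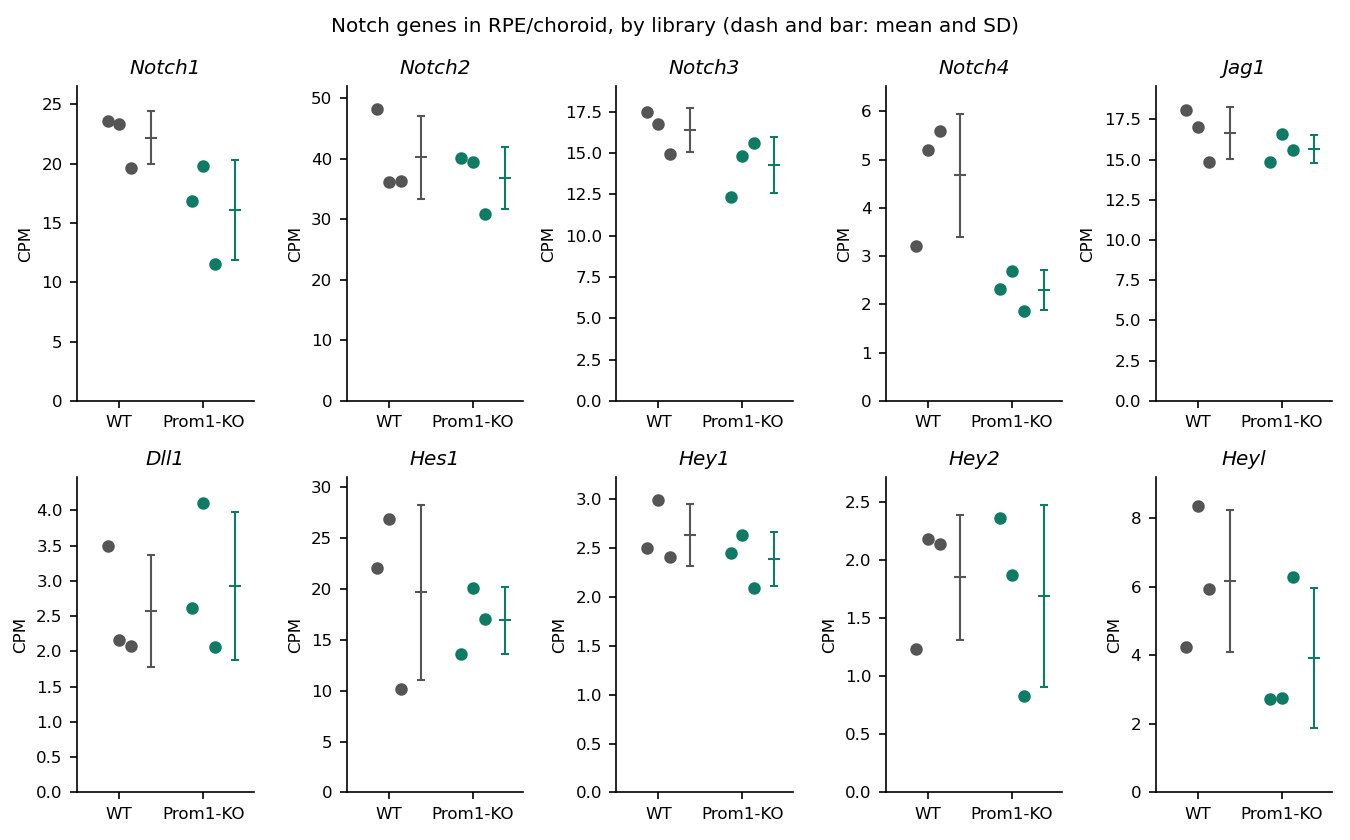
Levels of the 10 Notch genes in RPE/choroid, in CPM for each library of WT and of those labelled Prom1-KO (n = 3 each), with the mean ± SD as dash and bar. Notch4 is separate between the groups, with 3.21 to 5.60 CPM in WT and 1.86 to 2.69 CPM in Prom1-KO, and the other 9 genes overlap.

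The other receptors overlapped between the tissue groups. Notch1 was at 23.5, 23.4 and 19.6 CPM in WT and at 16.9, 19.8 and 11.5 CPM in the libraries labelled Prom1-KO (log2 fold change -0.46 ± 0.21, edgeR adjusted p = 0.633), and its ranges met between 19.6 and 19.8 CPM. Notch2 was at 36.2 to 48.2 and 30.9 to 40.1 CPM (-0.13 ± 0.17), and Notch3 at 14.9 to 17.5 and 12.4 to 15.6 CPM (-0.20 ± 0.14). Prom1-KO replicate 3 was the lowest library for Notch1 and Notch2 and within the WT range for Notch3. The ligand Jag1 was at 14.9 to 18.1 CPM in WT and 14.8 to 16.6 CPM in Prom1-KO (-0.09 ± 0.13), the narrowest spread of the 10 genes on the log2 scale by SE. Dll1 was the member with a positive value (0.19 ± 0.32), at 2.07 to 3.49 and 2.06 to 4.10 CPM.

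The targets all had negative log2 fold changes, and none passed the adjusted p in edgeR. Hes1 was at 22.0, 26.9 and 10.2 CPM in WT and at 13.6, 20.1 and 17.0 CPM in the libraries labelled Prom1-KO, with WT replicate 3 the lowest of all 6 (log2 fold change -0.22 ± 0.34). Heyl was at 4.24, 8.34 and 5.92 CPM in WT and at 2.72, 2.74 and 6.27 CPM in Prom1-KO (-0.67 ± 0.39, edgeR adjusted p = 0.717). Here Prom1-KO replicate 3 lay inside the WT range, and without it the log2 fold change of Heyl was -1.19 (edgeR adjusted p = 0.322). Hey1 (-0.14 ± 0.18) and Hey2 (-0.11 ± 0.40), at 2.09 to 2.99 and 0.83 to 2.37 CPM over the 6 libraries, overlapped between groups, and Hey2 was at 0.18 without Prom1-KO replicate 3.

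Of the 10 members, 0 passed both limits in tissue, where 0.189% of tested genes did, and 0 passed the adjusted p at any fold, where 0.193% did. The count was 1 at an unadjusted p under 0.05, where 8.30% of tested genes passed, and DESeq2 placed 0 past both limits. Of the 10 log2 fold changes 9 were negative, with a median of -0.17 beside 0.01 over all tested genes. Without Prom1-KO replicate 3 the log2 fold change was -0.29 for Notch1, -0.03 for Notch2, -0.28 for Notch3, -0.10 for Jag1, 0.37 for Dll1, -0.24 for Hes1 and -0.07 for Hey1, and 0 of 10 members passed both limits. Of the 10 RPE markers 3 were lower past both limits, Rpe65 at -6.06 ± 0.62 (edgeR adjusted p = 0.0191), Rgr at -5.23 ± 0.57 (0.0242) and Lrat at -3.43 ± 0.22 (0.00445), while 6 of 10 were separate and lower and Tyr, Pmel, Best1 and Otx2 overlapped between the groups. Without Prom1-KO replicate 3 the adjusted p was 0.0942 for Rpe65, 0.113 for Rgr and 0.0108 for Lrat. Their part in the values of the Notch genes was not tested.

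**Figure D4:**
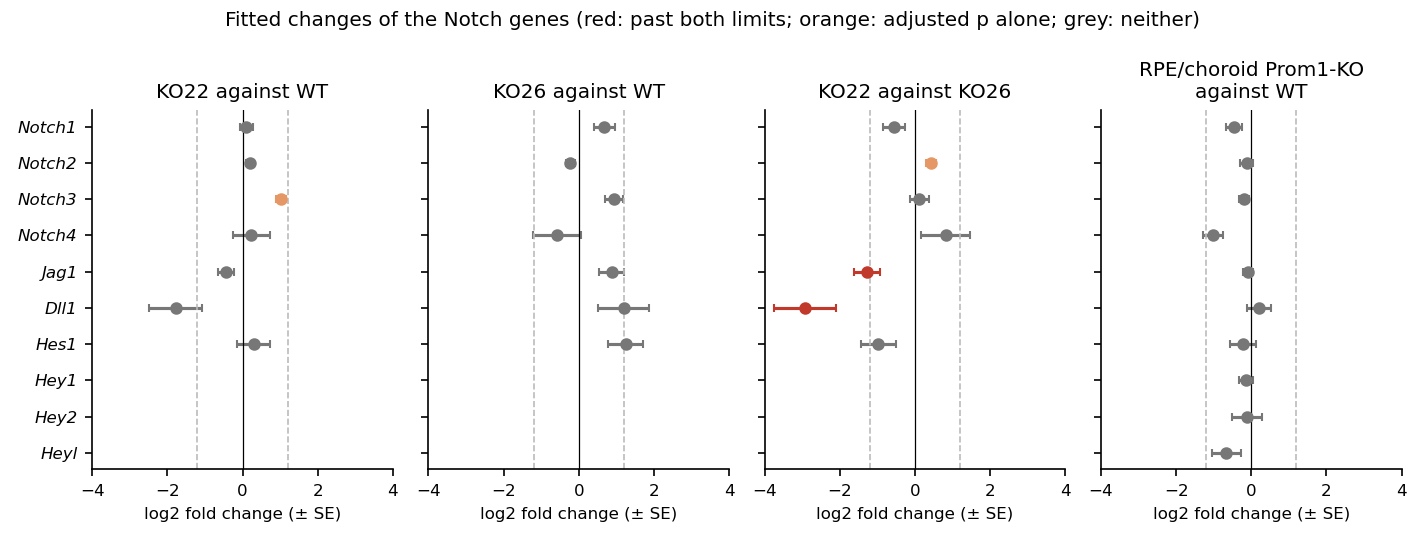
Log2 fold change ± SE (horizontal axis) of each Notch gene in the 3 mRPE comparisons and in RPE/choroid, with dashed lines at ±1.2. Jag1 (-1.29) and Dll1 (-2.92) between the clones are past both limits, Notch3 in KO22 against WT (1.02) and Notch2 between the clones (0.42) pass the adjusted p alone, and all other points pass neither.

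Beyond the members, 46 genes of the pathway were read in 6 lists by role. Between KO22 and WT 38 of them were tested, 1 rose and 5 fell past both limits, 15.8% beside 25.2% of all tested genes, and at any fold 5 higher and 13 lower passed the adjusted p, 47.4% beside 53.0%. Dlk1, a Delta-like protein without the motif of canonical ligands, was at 21.0 to 31.5 CPM in WT and at 4.73 to 5.45 CPM in KO22, and fell by 2.27 ± 0.16 on the log2 scale (edgeR adjusted p = 4.7e-06). It was the sole call among 4 tested other ligands. Of 9 cleavage genes Psen2, a catalytic subunit of gamma-secretase, fell from 4.25 to 7.32 CPM in WT to 0.778 to 1.16 CPM in KO22 (-2.47 ± 0.25, edgeR adjusted p = 4.5e-05). Aph1b, a scaffold subunit of the same complex (-1.10), was lower at the adjusted p alone, and Adam10, which makes the cut outside the membrane, was higher at the adjusted p alone (0.83 ± 0.09).

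Of 11 tested genes of endocytosis and turnover, Dtx4 and Dtx3, Deltex ubiquitin ligases, fell. Dtx4 was at 138 to 177 CPM in WT and at 29.0 to 38.2 CPM in KO22 (-2.32 ± 0.15, edgeR adjusted p = 3.29e-06), and Dtx3 was at 12.1 to 22.1 and 2.68 to 5.12 CPM (-2.07 ± 0.18). Neurl1b, a ligase of the Neuralized family that acts on ligands, rose from 1.08 to 1.75 CPM to 2.42 to 7.99 CPM (1.97 ± 0.39, edgeR adjusted p = 0.00215). Hes6, a HES-family member that counters Hes1, fell from 6.60 to 7.95 CPM to 2.41 to 2.72 CPM (-1.48 ± 0.20, edgeR adjusted p = 0.000205). Among 8 nuclear genes 0 passed both limits, while 3 higher and 2 lower passed the adjusted p. Rbpj, the DNA-binding partner of cleaved Notch, was at 0.50 ± 0.10 (edgeR adjusted p = 0.00318) with overlapping groups. Maml2, of the same list, was lower with separate groups (-0.98 ± 0.15, edgeR adjusted p = 0.000529). Among 4 tested glycosylation genes 0 passed the adjusted p.

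Against WT, KO26 had 1 of the 38 past both limits, 2.63% beside 1.92% of all tested genes. This was Dlk1, at 11.9 and 9.72 CPM, which fell by 1.26 ± 0.18 on the log2 scale (edgeR adjusted p = 0.00934). It was at -1.22 without KO26 replicate 1 (edgeR adjusted p = 0.064) and at -1.13, under the fold limit, without WT replicate 1. Between the clones 2 of 38 were higher in KO22 (Dlk2 and Neurl1a, a Neuralized ligase) and 5 were lower (Hes6, Psen2, Aph1b, Dtx3 and Dtx4), 18.4% beside 18.3% of all tested genes. Of these, Dlk2 lost its call without KO26 replicate 1 (edgeR adjusted p = 0.0613), Neurl1a without KO22 replicate 3 (0.0563) or KO26 replicate 2 (0.161), and Aph1b without KO26 replicate 2 (-1.11, under the fold limit). In tissue 0 of 43 tested genes passed the edgeR limits, beside 0.189% of all tested genes, 4 had an unadjusted p under 0.05, beside 8.30%, and DESeq2 placed 1 past both limits, beside 271 of 24926 genes. That gene, named after its values were seen, was Dlk1, with 44, 54 and 57 counts in WT and 4, 3 and 4 counts in the libraries labelled Prom1-KO (log2 fold change -3.25 ± 0.45, edgeR adjusted p = 0.054, DESeq2 adjusted p = 2.68e-05), and without Prom1-KO replicate 3 it was at -3.62 (edgeR adjusted p = 0.0793).

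**Figure D5:**
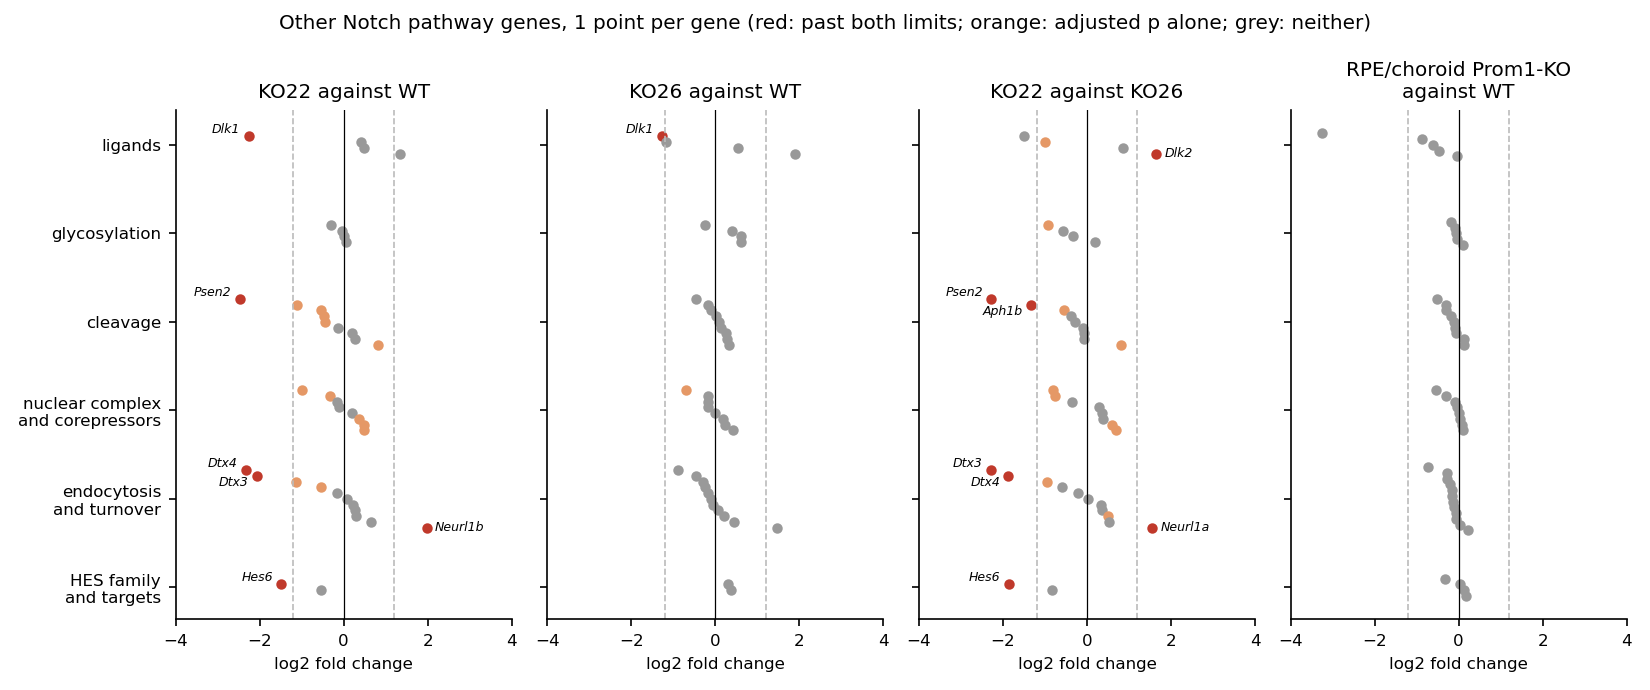
Log2 fold change (horizontal axis) of the other Notch pathway genes in 6 lists by role, 1 point per tested gene, in the 4 comparisons, with dashed lines at ±1.2. Genes past both limits are named; Dlk1 is named at -2.27 in KO22 and -1.26 in KO26, and its grey point in RPE/choroid is at -3.25.

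Across the 9 mRPE libraries, the genes whose log2 CPM followed Notch3 most closely were Gm12868 (Pearson r = 0.964) and Ksr1 (0.962), and those that followed Jag1 were Shf (0.977) and Klhl22 (0.975). These are the extremes of 20737 genes over libraries that share their groups and batches, were looked up after the values were seen, and are given as a description.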

How the data were processed

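RNA was sequenced from 9 mRPE and 6 RPE/choroid libraries, grouped by their labels. Per the submitters' processing notes the authors used Trim Galore 0.6.7, STAR, the mm39 build and DESeq2 1.42.0, and deposited raw counts per gene, without genes of low count, together with normalized signal values (counts divided by size factors), which were not used here. The paper names a TruSeq stranded kit and the labels an NEB stranded kit. In R 4.3.3, edgeR 4.0.16 was run on the counts, with its quasi-likelihood test (TMM, at least 5 counts in at least 3 libraries, batch as a term for mRPE, Benjamini-Hochberg adjustment over all tested genes). The 2 limits for a call were 0.05 on the adjusted p and 1.2 on the size of the log2 fold change. The fit held 7 libraries for KO22 against WT, all 9 for both comparisons with KO26, and 6 for tissue. SE is the absolute log2 fold change over the square root of F. CPM used TMM-scaled library sizes, lengths came from the GENCODE annotation of GRCm39, and within-batch differences used log2(CPM + 0.5). Simulated data with 200 changed genes were tested with each fit. For pairs of libraries of a group, chi-square divided by its degrees of freedom ran from 4.8 to 247, so none agreed within sampling noise. The members and lists were chosen with earlier results of these data known. Every member is named, and other pathway genes where past both limits, at most 8 a list. Adam10, Rbpj and Maml2 were named outside this rule. So were the values of Aph1b in KO22 against WT and of Dlk1 in tissue. Alternatives were DESeq2 and its size factors, other filters, fold limits, batch settings and samples in the fit, and each library left out in turn; leaving out mitochondrial genes in tissue was chosen after seeing the data.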

Additional observations from a re-analysis of the deposited data

Results flagged for a closer look

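Notch1 and Notch2 in mRPE WT replicate 1 stood apart from the other 3 WT libraries. Notch1 was at 22.25 CPM and Notch2 at 141.44 CPM there, and the gap to the next WT library took 0.897 and 0.939 of the whole WT range. This is the WT library of batch 8995, so batch and library cannot be told apart. The 95% critical value used marks about 1 in 20 groups by chance, and the WT values of 7 members were screened.

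In edgeR's test of KO22 against KO26, 3 of 7 members had an adjusted p under 0.05, beside 34.4% of all tested genes. The log2 fold change was 0.418 for Notch2 (adjusted p = 0.0263), -1.285 for Jag1 (0.0166) and -2.925 for Dll1 (0.0194), and with the clones fitted alone 0 members passed both limits. KO22 replicate 1 was the lowest library for Jag1 and Dll1, and KO26 replicate 1 the highest for Jag1.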

How the results depend on the processing

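Of 480 alternative values for single members 442 kept their direction and their call or lack of one, and 17 changed sign. A call was lost by 7 and gained by 14, judged by the adjusted p together with the fold limit of each setting. All 41 levels stayed within 1 SD under DESeq2 size factors. Notch3 in KO22 against WT ranged from 0.934 to 1.063. Between KO22 and WT the members called numbered 1 with no fold limit or a limit of 1 (Notch3), 1 in batch 9262 alone (Dll1), and 0 to 1 with a library left out. Between KO26 and WT they numbered 1 with WT and KO26 alone (Hes1) and 0 to 2 with a library left out. Between the clones they numbered 1 with no batch term (Jag1), 0 with the clones alone, and 0 to 2 with a library left out. In tissue the count was 0 throughout. In batch 9262 alone the KO22 value was -0.233 for Hes1 and -0.03 for Notch4. With a library left out, signs changed in KO22 against WT for Hes1 (-0.249 to 0.64), Notch4 (-0.221 to 0.601) and Notch1 (-0.124 to 0.321), between the clones for Notch3 (-0.383 to 0.794) and Notch1 (-1.145 to 0.024), and in tissue for Notch2 (-0.201 to 0.024), Hey2 (-0.437 to 0.183), Hes1 (-0.533 to 0.069) and Dll1 (-0.135 to 0.474). The cause was not tested. Over all genes the calls numbered 5154 between KO22 and WT and 10837 with no fold limit. Between KO26 and WT they numbered 399, and 629 by DESeq2, 725 with no fold limit, 194 with no batch term, 818 with WT and KO26 alone and 114 to 878 with a library left out. Between the clones they numbered 3797, 7132 with no fold limit and 2336 with the clones alone. In tissue they numbered 47, 271 by DESeq2 and 9 to 40 with a library left out. Notch4 and Dll1 in mRPE rest on 0 to 21 counts a library, which limits what could be detected. No paired analysis was possible because the labels number no replicates across groups; the batch, which the labels do give, was a term in the mRPE fits.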
